A study of Mus musculus with 4 samples.

Results

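Respiratory complex I (NADH:ubiquinone oxidoreductase) was represented by 45 probe sets of 41 nuclear genes, out of 21044 probe sets that name exactly 1 gene. Members were chosen by gene symbol alone. *Nduf* followed by a, b, c, s or v and a number gave the subunits (38 probe sets, 34 genes), and *Ndufaf* followed by a number gave the assembly factors (7 probe sets, 7 genes, *Ndufaf1* to *Ndufaf7*). A further 3 probe sets that name an *Nduf* gene together with another gene were not used.

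Complex I is the entry point for electrons from NADH into the mitochondrial respiratory chain. Its matrix arm oxidises NADH and passes electrons along iron-sulphur clusters to ubiquinone, and its membrane arm pumps protons across the inner membrane. The catalytic core is conserved from bacteria, accessory subunits surround it, and assembly factors guide or modify the subunits while the complex is built without remaining in it. Most subunits are made from nuclear transcripts in the cytoplasm, and muscle relies on the complex for much of its ATP.

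CUGBP1, the product of *Celf1*, binds GU-rich elements of RNA and promotes shortening of poly(A) tails. To learn which mRNAs it associates with in muscle cells, RNA was recovered from cytoplasmic lysates by immunoprecipitation and hybridized to Affymetrix Mouse Gene 1.0 ST arrays (RIP-Chip). The 4 arrays comprised 2 with the monoclonal anti-CUGBP1 antibody 3B1 (CUGBP1 IP) and 2 with normal IgG (control IgG). Both groups came from the same proliferating C2C12 (LKO1) cells, a line of mouse myoblasts carrying an empty lentiviral vector under puromycin and kept below 70% confluency, and no knockdown was present in either group. The input RNA was not analysed here, so the amount of a transcript in the lysate and its recovery per molecule cannot be told apart.

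Each value is a linear intensity relative to the 5th percentile of its own array, so a probe set without signal reads about 1. Brightness also depends on the probes, and no level is read here as abundance. Over all probe sets in the table the 95th percentile of CUGBP1 IP replicates 1 and 2 was 9.37 and 13.0, and that of control IgG was 2.36 and 5.96. The arrays therefore differed at the bright end, the first control IgG array being the dimmest. Of 6 myoblast markers, 5 were above background on all 4 arrays, with summed intensities of 112 and 154 in CUGBP1 IP and 40.8 and 112 in control IgG. Most of each sum came from *Vim*, which alone read 77.89 and 114.15 in CUGBP1 IP and 32.14 and 98.05 in control IgG. Of 5 markers of differentiated muscle, 1 (*Acta1*) was above background on all 4 arrays, and *Myh1* and *Myh4* on none. *Ckm* and *Mb* were each above background on 3 arrays, including both CUGBP1 IP arrays. Of 7 markers of blood, endothelium and epithelium, 0 were above background on all 4 arrays and 5 on none, with summed intensities of 8.01 and 8.35 against 7.32 and 7.78.

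The complex I transcripts were readily detected in both kinds of precipitate. Of the 45 probe sets, 42 were above background, the 95th percentile of olfactory and vomeronasal receptor probe sets, on all 4 arrays. These were all 38 subunit probe sets and 4 of the 7 assembly factors. The median subunit intensity was 3.63 and 5.84 in CUGBP1 IP and 1.69 and 3.89 in control IgG. The median assembly factor intensity was 1.57 and 1.76 in CUGBP1 IP and 1.13 and 1.47 in control IgG, close to the floor. In each of the 45 probe sets the second replicate read higher than the first within both groups, and the second control IgG array reached or exceeded the first CUGBP1 IP array in 32.

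**Figure D1:**
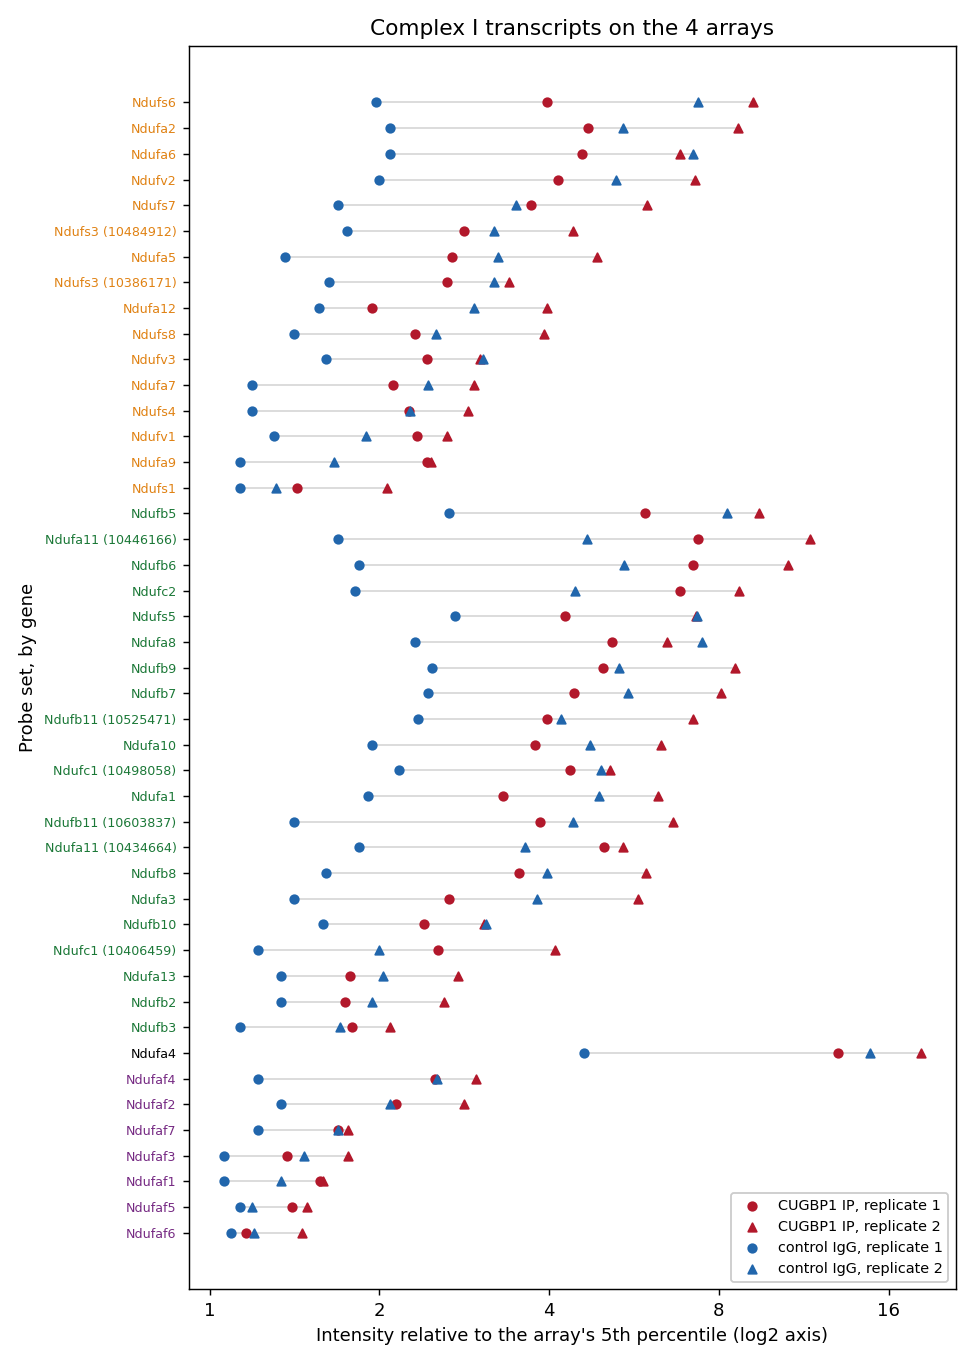
Intensity of each complex I probe set on the 4 arrays, on a log2 axis and in units of that array's 5th percentile, with red for CUGBP1 IP, blue for control IgG, circles for replicate 1 and triangles for replicate 2. Gene names are orange for the matrix arm, green for the membrane arm, black for *Ndufa4* and purple for assembly factors. Both CUGBP1 IP arrays read above both control IgG arrays in 13 of 45 probe sets (28.9%), fewer than the 66.3% of all probe sets.

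As deposited, no complex I probe set passed the test for a difference between CUGBP1 IP and control IgG. With limma on log2 intensities and Benjamini-Hochberg adjustment over all 21044 probe sets, 0 of 45 were higher, where 1.95% of all probe sets were, and 0 were lower, where 0.138% were. Adjusted p-values of the members in limma ran from 0.124 to 0.772. At an unadjusted limma p under 0.05, 3 of 45 were higher (*Ndufa9*, *Ndufc1* and *Ndufs1*) beside 28.6% of all probe sets, and 0 were lower. The standard error (SE) of the fit follows intensity, and among members ran from 0.16 for the dim *Ndufaf6* to 1.32 for *Ndufa4*, the brightest. The shares over all probe sets are not matched for brightness. These counts therefore cannot be read as a shortfall of complex I. After quantile normalization limma called 0 members higher and 3 lower (*Ndufs5*, *Ndufv3* and *Ndufb10*), beside 0.0855% of all probe sets called lower there.

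The signal-to-negative ratio, the mean CUGBP1 IP value over the mean control IgG value, was above 1 in all 45 probe sets and ranged from 1.14 to 2.98 with a median of 1.46. The median was 1.54 for subunits and 1.25 for assembly factors, beside 1.22 for all probe sets. Most probe sets read higher in CUGBP1 IP, with 94.0% of all having a log2 difference above 0. The study took the top 5% of ratios as associated with CUGBP1, and describes that set as enriched from 3 fold upwards. The same share, taken here over probe sets that name 1 gene and so not necessarily over the transcripts the study ranked, began lower, at 2.57. It held 5% of all probe sets and 1 of the 45, a probe set of *Ndufa11* whose ratio of 2.98 is just under the study's 3 fold as printed. That count was 0 without the first control IgG array, 3 without the second, and 2 without the first CUGBP1 IP array.

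Both CUGBP1 IP arrays read above both control IgG arrays in 13 of 45 probe sets (28.9%), compared with 66.3% of all probe sets. They were 10 of 38 subunits and 3 of 7 assembly factors. With arrays scaled to their medians the count was 8 of 45, beside 30.8% of all probe sets, and after quantile normalization it was 0, beside 19.4%. Among the 500 probe sets nearest in brightness to each member, the share without overlap averaged 79.4%. The reverse order, both CUGBP1 IP arrays below both control IgG arrays, was seen in 0 of 45 and in 0.95% of all probe sets. The size of the ratio depended on the control array. Against the first control IgG array alone the median member ratio was 2.25 (range 1.20 to 5.60), and against the second it was 1.13 (range 0.779 to 2.03), with 10 subunits and 0 assembly factors below 1.

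On the log2 scale the median difference, CUGBP1 IP minus control IgG, was 0.67 for subunits and 0.32 for assembly factors, beside 0.29 for all probe sets. As deposited the difference was above 0 in all 45 probe sets, beside 94.0% of all probe sets, so this direction is not particular to complex I. With arrays scaled to their medians it was above 0 in 42. After quantile normalization it was above 0 in only 6, and the medians were -0.48 and -0.12. The share of all probe sets was not computed for either scaling. Scaling to the medians moved the median of all probe sets from 0.29 to 6.6e-04, and quantile normalization moved it to -0.02. The direction of complex I as a whole thus depended on the scaling. The spread of the subunit median between replicates was 0.98, larger than the difference of 0.67, and that of the assembly factor median was 0.29. Leaving out the first control IgG array gave a subunit median of 0.14 and leaving out the second gave 1.31. For assembly factors the corresponding medians were 0.12 and 0.55.

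Brighter probe sets had larger differences throughout the arrays. Over the 7727 tested probe sets above background on all 4 arrays, the log2 difference correlated with mean log2 intensity with Pearson's r of 0.52 and Spearman's rho of 0.79. Over the 45 members r was 0.54 and rho 0.55, and over the 38 subunits r was 0.41 and rho 0.38. These are correlations across probe sets that share the same 4 arrays, and are given as descriptions. Each member was therefore compared with the 500 probe sets nearest to it in mean log2 intensity over the 4 arrays.

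Relative to probe sets of similar brightness, complex I transcripts lay low. The log2 difference was below the median of the neighbours in 38 of 45 probe sets, that is 32 of 38 subunits and 6 of 7 assembly factors. The median relative difference was -0.37 for subunits (range -1.02 to 0.38) and -0.10 for assembly factors (range -0.27 to 0.01). The median percentile among the 500 neighbours was 13.4 for subunits and 21.6 for assembly factors. A total of 17 subunit probe sets and 1 assembly factor lay under the 10th percentile, 14 of them under the 5th, and 0 lay over the 90th. The count was also 38 after quantile normalization, while scaling by a constant per array cancels in the relative difference and cannot move it. It was 39, 38 and 39 without the first CUGBP1 IP, the second CUGBP1 IP and the first control IgG array, and 31 without the second control IgG array. With neighbours chosen by brightness on the control IgG arrays alone, the count was 35 of 45. The median percentile was then less low, at 20 for subunits and 27.2 for assembly factors. No p-value is given for these counts because the members are not replicates.

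**Figure D2:**
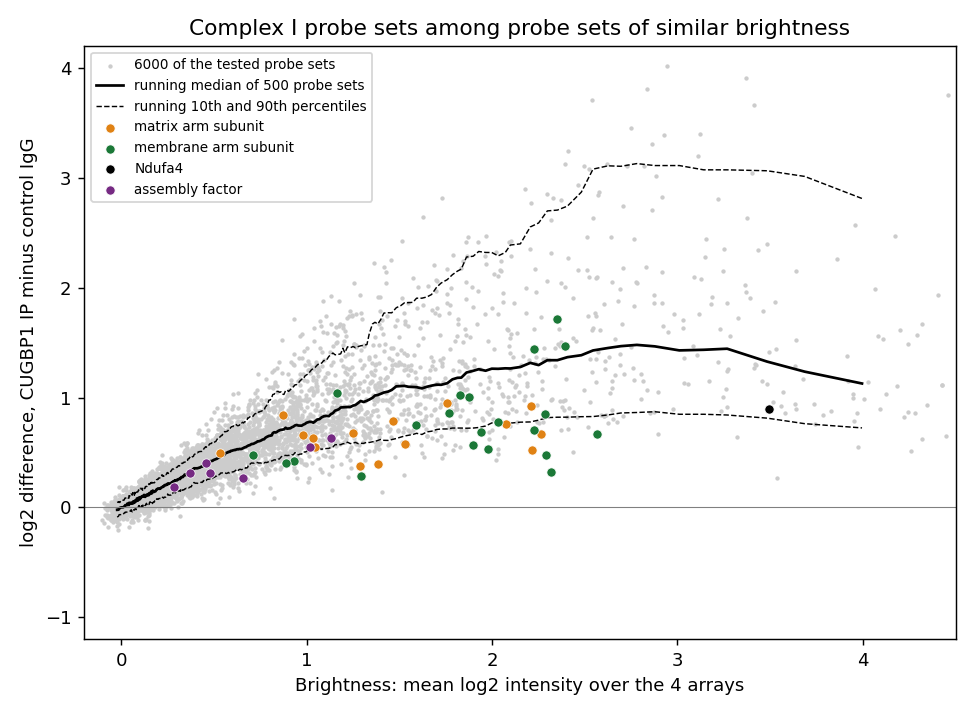
Log2 difference of CUGBP1 IP minus control IgG (vertical axis) against mean log2 intensity over the 4 arrays (horizontal axis) for the complex I probe sets and, in grey, a sample of the tested probe sets. The solid line is the running median and the dashed lines the 10th and 90th percentiles of 500 probe sets, and 38 of the 45 members lay below the median of their own neighbours (38 also after quantile normalization).

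The relative difference was also split by array. Neighbours were matched on mean intensity over these same arrays, so a member low in CUGBP1 IP tends to read high in control IgG. The relative values by array therefore restate the relative difference and are not separate evidence for it. Relative to the neighbours' median on each array, the subunit median was -0.32 and -0.08 in CUGBP1 IP and 0.15 and 0.35 in control IgG. Both CUGBP1 IP values were below both control IgG values in 26 of 38 subunit probe sets by this measure, and above both in 1. The assembly factor median was -0.07 and -0.09 against 0.04 and 0.13, with 3 of 7 probe sets below and 0 above. The share of all probe sets in either order was not computed for this measure. These counts therefore cannot be read as particular to complex I. In rank over all tested probe sets, the median subunit stood at percentile 89.1 and 91.4 in CUGBP1 IP and at 93.2 and 94.2 in control IgG. For the median assembly factor the ranks were 63.7 and 61.1 against 65.1 and 69.7.

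**Figure D3:**
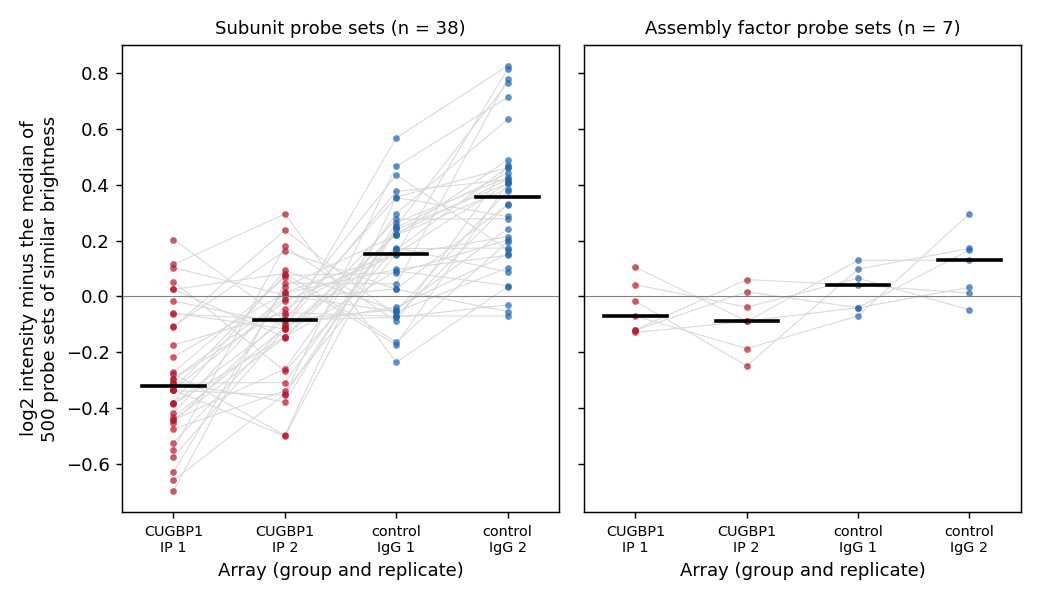
Log2 intensity of each subunit probe set (left) and assembly factor probe set (right) minus the median of its 500 neighbours in brightness, on each of the 4 arrays. Grey lines join the values of 1 probe set and black bars are medians, which for subunits run from -0.32 and -0.08 in CUGBP1 IP to 0.15 and 0.35 in control IgG.

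Subunits lay somewhat lower than assembly factors by this measure, by little more than the spread between replicates, and no test was made of it. The assembly factor median minus the subunit median of the relative difference was 0.26, where the spread between replicates was 0.20. It ranged from 0.18 to 0.38 when 1 array was left out, and was 0.14 when only probe sets above background on all 4 arrays were kept. With neighbours chosen by brightness on the control IgG arrays alone it was also 0.14, under the spread. The values of the assembly factors were dim, with 3 of 7 at background on at least 1 array, and the part of this in the difference was not tested. Their relative median of -0.10 was -0.23 without the first control IgG array, -0.16 without the second CUGBP1 IP array and -0.060 without the second control IgG array.

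By position in the enzyme, the 16 matrix arm probe sets (15 genes) had a median ratio of 1.47, a median relative difference of -0.33 and a median percentile of 16, with 14 of 16 below their neighbours' median. The 21 membrane arm probe sets (18 genes) had a median ratio of 1.57, a median relative difference of -0.35 and a median percentile of 10.4, with 17 of 21 below. Both arms lay low. The 7 probe sets of the 6 core subunits gave -0.25 with 6 of 7 below, and the 30 of the accessory subunits gave -0.37 with 25 of 30 below. By name, 12 of 14 *Ndufa*, 9 of 10 *Ndufb*, 7 of 8 *Ndufs* and 3 of 3 *Ndufv* probe sets were below, against 1 of 3 *Ndufc* probe sets.

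The core subunits of the matrix arm carry the flavin and the iron-sulphur clusters. *Ndufs1*, which encodes the largest of them and holds several clusters, read 1.43 and 2.06 in CUGBP1 IP and 1.13 and 1.31 in control IgG, without overlap of the groups. Its log2 difference was 0.50 with SE 0.25 (limma adjusted p = 0.165), close to the neighbours' median, and its percentile of 65.0 was the highest of the core. *Ndufs3*, a core subunit that enters the complex early, had 2 probe sets. The first (10484912) read 2.83 and 4.41 against 1.75 and 3.19, at percentile 5.4, and the second (10386171) read 2.63 and 3.40 against 1.63 and 3.19, at percentile 0.8. In both *Ndufs3* probe sets the second control IgG array exceeded the first CUGBP1 IP array. The other core subunits, *Ndufs7*, *Ndufs8*, *Ndufv1* and *Ndufv2*, had ratios from 1.55 to 1.87 and percentiles from 9.2 to 33.6.

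Among the accessory subunits of the matrix arm, *Ndufa9* stood highest and *Ndufv3* lowest by percentile among their neighbours. *Ndufa9* encodes a nucleotide-binding subunit at the junction of both arms, and read 2.43 and 2.47 in CUGBP1 IP and 1.13 and 1.66 in control IgG. Its replicates differed less within the CUGBP1 IP than the gap to either control array, and its log2 difference was 0.84 with SE 0.35. The limma adjusted p of *Ndufa9*, 0.124, was the smallest of all members (unadjusted p = 0.0162), and its percentile was 69.0. *Ndufv3*, which encodes a small subunit of the NADH-oxidising module, read 2.43 and 3.01 against 1.61 and 3.05, a ratio of 1.17. The second control IgG value of *Ndufv3* was the highest of its 4 values, and the log2 difference of 0.29 with SE 0.50 lay 0.67 below the neighbours' median of 0.96, at percentile 0.4. Its adjusted p in limma was 0.628.

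In the membrane arm, *Ndufa11*, encoding an accessory subunit that spans the membrane, had the largest ratio of complex I. The brighter of its 2 probe sets (10446166) read 7.34 and 11.6 in CUGBP1 IP and 1.69 and 4.67 in control IgG, a ratio of 2.98 that ranked 761 of 21044. The groups did not overlap, but the control values themselves lay nearly as far apart as the groups, and the log2 difference of 1.72 had an SE of 0.97 (limma adjusted p = 0.196). The other probe set (10434664) read 5.01 and 5.40 against 1.84 and 3.63, a ratio of 1.90. The *Ndufa11* probe sets stood at percentiles 70.2 and 36.4 of their neighbours, so they fell on opposite sides of the median.

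*Ndufc1*, encoding a small subunit of the membrane arm, showed the widest gap in percentile between probe sets of 1 gene. One (10406459) read 2.54 and 4.09 in CUGBP1 IP and 1.22 and 2.00 in control IgG, without overlap, with a log2 difference of 1.05, SE 0.45, unadjusted p of 0.0215 and adjusted p of 0.137 in limma. The other (10498058) read 4.36 and 5.13 against 2.17 and 4.94, with overlap and a limma adjusted p of 0.574. The ratios were 2.06 and 1.33 and the percentiles 67.0 and 1.4, and which of the *Ndufc1* probe sets better represents the transcript cannot be told from these values. *Ndufb11*, encoding another accessory membrane subunit, had ratios of 1.80 and 1.71 at its 2 probe sets. They read 3.86 and 6.62 against 1.41 and 4.41 (10603837) and 3.97 and 7.21 against 2.34 and 4.19 (10525471), at percentiles 38.2 and 10.4. The *Ndufb11* groups overlapped in both.

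The lowest places of the membrane arm were held by *Ndufs5*, *Ndufa8* and *Ndufb10*, whose products are accessory subunits on the side facing the intermembrane space. *Ndufs5* read 4.26 and 7.29 in CUGBP1 IP and 2.72 and 7.31 in control IgG, a ratio of 1.15. Its log2 difference of 0.32 with SE 0.95 lay 1.02 below the neighbours' median of 1.34, and 0 of the 500 neighbours had a smaller one (limma adjusted p = 0.772). *Ndufs5* was thus the member farthest below probe sets of similar brightness. *Ndufa8* read 5.17 and 6.47 against 2.31 and 7.47, a ratio of 1.19 at percentile 0.4. *Ndufb10* read 2.40 and 3.06 against 1.59 and 3.09, a ratio of 1.17 at percentile 0.6. For these 3 genes the second control IgG array gave the highest of the 4 values, as it also did for *Ndufv3* and for *Ndufa6*, a matrix arm subunit picked out here after its values were seen.

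Among the brightest subunit probe sets the places differed widely. *Ndufb6*, encoding a membrane arm subunit, read 7.20 and 10.6 in CUGBP1 IP and 1.84 and 5.44 in control IgG, a ratio of 2.44 at percentile 59.4. *Ndufb5*, of the same arm, read 5.91 and 9.44 against 2.66 and 8.28, a ratio of 1.40 at percentile 3.2. The groups did not overlap in *Ndufb6* and overlapped in *Ndufb5*, and limma called neither (adjusted p of 0.252 for *Ndufb6* and 0.589 for *Ndufb5*). *Ndufa4*, the brightest member, carries a complex I name but its product is now counted with complex IV. It read 13.0 and 18.2 against 4.61 and 14.9, a ratio of 1.60, with overlap and a percentile of 13.4. Without *Ndufa4* the subunit median percentile stayed at 13.4 over 37 probe sets.

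The assembly factors act at different stages. *Ndufaf3* and *Ndufaf4* encode partners of early assembly, *Ndufaf3* reading 1.37 and 1.76 in CUGBP1 IP and 1.06 and 1.47 in control IgG. *Ndufaf4* read 2.51 and 2.97 against 1.22 and 2.53. Both overlapped between groups through the second control IgG array, with ratios of 1.24 for *Ndufaf3* and 1.46 for *Ndufaf4* and percentiles of 18.8 and 21.6. *Ndufaf6*, whose product also acts early, read 1.16 and 1.46 against 1.09 and 1.20, above background on 2 of the 4 arrays, and had the lowest ratio of all members, 1.14.

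*Ndufaf1* encodes a factor of the membrane arm intermediate, and read 1.57 and 1.59 in CUGBP1 IP and 1.06 and 1.34 in control IgG, without overlap. *Ndufaf1* was the assembly factor above its neighbours' median, by 0.0077 at percentile 52.8 (log2 difference 0.41, SE 0.22, limma adjusted p = 0.188), and it was at background on the first control IgG array. *Ndufaf2* encodes a factor that joins late and read 2.14 and 2.82 against 1.34 and 2.09, without overlap, at percentile 14.2. *Ndufaf5* and *Ndufaf7* encode enzymes that modify arginines of core subunits. *Ndufaf5* read 1.40 and 1.49 against 1.13 and 1.19, without overlap, at percentile 47.8. *Ndufaf7* read 1.69 and 1.76 against 1.22 and 1.69, a ratio of 1.19 at percentile 3.0, the lowest of the assembly factors. The limma adjusted p of the 7 assembly factors ran from 0.188 for *Ndufaf1* to 0.431 for *Ndufaf7*.

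The side on which a member lay was compared over 6 settings, namely as deposited, after quantile normalization and with each of the 4 arrays left out. In these, 29 of 45 probe sets were below their neighbours' median in every one, 4 were above it in every one, and 12 changed side. The 4 were *Ndufa9*, *Ndufc2* and the higher probe sets of *Ndufa11* and *Ndufc1*. *Ndufc2*, encoding a membrane arm subunit, read 6.83 and 8.68 in CUGBP1 IP and 1.81 and 4.44 in control IgG. *Ndufs1* changed side in 2 settings, and its percentile ran from 37.8 to 73.7 with 1 array left out.

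The other complexes of the respiratory chain were set beside complex I. Of 66 probe sets (47 genes) of complexes II to V, 0 were called higher or lower by limma, beside 1.95% and 0.138% of all probe sets. At an unadjusted limma p under 0.05, 9 were higher, beside 28.6% of all probe sets. The top 5% of ratios held 7 of the 66, among them all 3 probe sets of *Atp5g2*. The median relative difference was -0.34 and the median percentile 26.7, with 49 of 66 below their neighbours' median. For complex I the corresponding values were -0.28 and 14.2, with 38 of 45 below, and this difference was not tested. Among those complexes the median percentile was 48.3 for complex II (4 probe sets), 18.0 for III (12), 35.5 for IV (21) and 26.6 for V (29). These lists differ in detection. Above background on all 4 arrays were 58 of the 66 and, within complex IV, 14 of 21, against 42 of 45 for complex I. The complex IV probe sets outside that count ran from percentile 35.5 (*Cox7a1*) to 97.6 (*Cox8c*). The medians of complexes I and IV are therefore not directly comparable. The complex V gene *Atp5g2* was set apart, with ratios from 8.96 to 9.69 at its 3 probe sets, whereas 0 complex I probe sets exceeded 2.98.

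**Figure D4:**
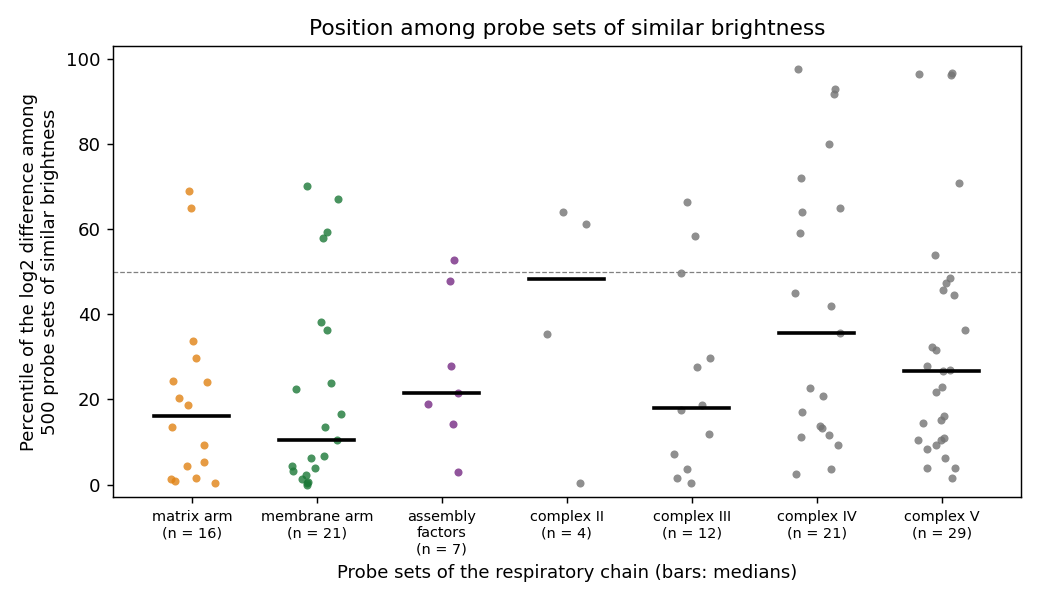
Percentile of each probe set's log2 difference among the 500 probe sets of similar brightness (vertical axis), for the matrix arm, membrane arm and assembly factors of complex I and for complexes II to V. Each point is a probe set and each bar a median, which is 16 for the matrix arm, 10.4 for the membrane arm and 21.6 for assembly factors (*Ndufa4*, at 13.4, is left out). Probe sets at background are included, and in complex IV 14 of 21 were above it on all 4 arrays.

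A further list held genes linked with complex I that the symbol rule leaves out (11 probe sets, 10 genes). It includes *Ndufa4l2*, named after *Ndufa4*, so it is not purely of complex I genes. Of the 11, 0 were called by limma in either direction and 7 were below their neighbours' median. The median relative difference was -0.06 and the median percentile 44. The CUGBP1 IP arrays were above the control IgG arrays in 9 of these 11, beside 66.3% of all probe sets. Only 4 of the 11 were above background on all 4 arrays, so most of these values are near the floor. *Ndufab1*, the acyl carrier protein of the complex, had ratios of 2.10 and 1.93 at its 2 probe sets. *Ecsit* and *Acad9*, which encode partners of the product of *Ndufaf1*, had ratios of 1.23 and 1.18. The mitochondrially encoded subunit *ND3*, made inside the organelle, had ratios of 2.18 and 1.85. The CUGBP1 IP arrays were above the control IgG arrays at both of its probe sets, an order seen in 66.3% of all probe sets. Both *ND3* probe sets were below their neighbours' median, with relative differences of -0.30 and -0.41 at percentiles 33.0 and 17.8.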

How the data were processed

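Cleared lysate of proliferating C2C12 (LKO1) cells was precipitated with anti-CUGBP1 or normal IgG, and the RNA of each precipitate was labelled and hybridized to 1 array. The deposited table holds linear intensities of 25175 probe sets, which the authors divided by each array's 5th percentile. The summarisation program is not given in the sources used here, nor is any background correction. A platform annotation named exactly 1 gene for 21044 probe sets, several for 1492 and none for 2639, and 20959 symbols were updated through a RefSeq gene table. Members and gene lists were chosen with earlier results of these data known.

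Samples were grouped by their titles. Nothing states that replicates came from separate cultures, so p-values measure only the spread between these samples, which may be technical, and 2 arrays per group limit the precision. Log2 intensities were fitted with limma 3.58.1 in R 4.3.3 (lmFit, eBayes with intensity trend, two-sided, Benjamini-Hochberg over the 21044 probe sets, threshold 0.05). The SE is the moderated one of that fit and follows the intensity trend. The fit was tested on simulated data with planted changes larger than that of any member and noise drawn independently for each array. That simulation does not show whether changes of the members' size would be called. Relative differences and percentiles used the 500 probe sets nearest in mean log2 intensity. Spread between replicates is the square root of the summed variances of the list median over the arrays of each group.

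Named were all assembly factors, any member called, the 4 subunit probe sets highest and the 4 lowest in percentile, the 4 brightest, and all probe sets of genes with more than 1. *Ndufa6* and *Ndufc2*, the remaining core subunits and the genes of other complexes were named besides. Both counts of probe sets below their neighbours' median and of groups without overlap were added after seeing the data. Alternatives were other scalings, an offset of 1, a background filter, no trend, a replicate block, each array left out, brightness from control IgG alone, 200 neighbours, the annotation's own symbols and the brightest probe set per gene. Probe sets of near-identical gene copies can share signal.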

Additional observations from a re-analysis of the deposited data

How the results depend on the processing

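Among the results over all members, directions relative to probe sets of similar brightness kept their sign under the alternatives run, with 31 to 39 of 45 probe sets below the neighbours' median (scaling to the medians cannot change these). The limma count of members higher was 0 except under the replicate block. With arrays scaled to their medians the groups did not overlap in 8 members, and *Ndufaf6* (-0.10), *Ndufaf7* (-0.024) and *Ndufv3* (-8.8e-04) had log2 differences below 0. After quantile normalization 3 of 45 members were called lower by limma (*Ndufs5*, *Ndufv3* and *Ndufb10*, adjusted p of 0.0251, 0.0413 and 0.041), beside 18 of all probe sets (0.0855%). In that setting 0 members were in the top 5% of ratios. Both CUGBP1 IP arrays were above control IgG in 0 members, beside 19.4% of all probe sets. The median log2 difference there was -0.48 for subunits and -0.12 for assembly factors. Single values after quantile normalization were -0.34 for *Ndufaf2*, -0.027 for *Ndufaf3*, -0.19 for *Ndufaf4*, -0.060 for *Ndufaf5*, -0.12 for *Ndufaf6*, -0.36 for *Ndufaf7*, -1.17 for *Ndufs5*, -0.96 for *Ndufa8*, -0.77 for *Ndufv3*, -0.77 for *Ndufb10*, -0.76 for *Ndufa4*, -0.88 for *Ndufb5*, -0.32 for *Ndufa11* (10434664), -0.69 and -0.16 for *Ndufb11*, -0.84 for *Ndufc1* (10498058), and -0.72 and -0.63 for *Ndufs3* (10386171 and 10484912). The cause was not tested. With only probe sets above background, the relative median of assembly factors was -0.22. With 1 array left out it ranged from -0.23 to -0.060, and the members in the top 5% from 0 to 3. Log2 differences then ranged from -0.39 to 1.03 for *Ndufs5*, -0.37 to 1.32 for *Ndufa8*, -0.17 to 0.75 for *Ndufv3*, -0.19 to 0.77 for *Ndufb10*, -0.15 to 1.49 for *Ndufb5*, -0.063 to 1.12 for *Ndufc1* (10498058) and -0.093 to 0.88 for *Ndufs3* (10386171). Limma called 0 members with any array left out (18 at an unadjusted p under 0.05 without the second control IgG array, 0 without each of the others, where the lone array is assumed to vary like the other group) and 0 without the intensity trend (2 unadjusted), but each of these 5 fits called 0 of all probe sets higher and so says nothing about the members. With the replicate number as a block, 18 of 45 members (40.0%) were called higher beside 56.1% of all probe sets. Arrays of the same number deviated together (r = 0.64), but with 2 pairs, and nothing in the labels tying a number to a shared lysate, the pairing was not used.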
